A study of Homo sapiens with 18 samples.

Results

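The replication-dependent histone genes are the clustered genes that encode the bulk histones of dividing cells. They were taken as every gene of the expression table whose current symbol, looked up by its Entrez number, begins with H2AC, H2BC, H3C or H4C and a number, or is H1-1 to H1-6. The rule found 64 of 18475 genes, namely 6 H1, 16 H2A, 16 H2B, 13 H3 and 13 H4 genes. Of these, 49 lie on chromosome 6, 13 on chromosome 1, and 1 each on chromosomes 12 (H4C16) and 21 (H2BC12L). RNA-seq was performed on BEAS-2B (a bronchial epithelial line), H446 (small cell lung cancer) and A549 (lung adenocarcinoma), all of them wild type per the labels. Each line had 3 control libraries and 3 libraries of cells given 10 Gy of X-rays and harvested after 24 h, 18 libraries in all, to compare how normal epithelial and cancer cells respond to radiation. The titles call the controls before and the irradiated libraries after, and no harvest time is given for the controls. A difference in culture time between the groups therefore cannot be told apart from dose. Each line is 1 established cell line, and the sources do not say whether the RNA-seq replicates were separate cultures, although the methods state in general that experiments were repeated. The p-values therefore measure the spread between these libraries, which may be technical.

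Histones pack DNA into nucleosomes. H2A pairs with H2B, H3 pairs with H4, and the linker histone H1 binds where DNA enters and leaves the nucleosome. The genes described here are copied mainly in S phase, when new DNA needs new histones, and their mRNAs are unusual because most of them end in a conserved stem-loop instead of a poly(A) tail. The stem-loop is bound by SLBP, which takes part in 3′ end formation, translation and decay of these mRNAs. The libraries were made with oligo(dT) beads, so the values below are levels of histone mRNA that carries a poly(A) stretch, not of all histone mRNA.

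The stem-loop is shown because it is the feature that sets these mRNAs apart. In the GENCODE 29 transcripts (GRCh38), 29 of the 64 genes held a sequence match to a stem-loop of 6 stem bases, 4 loop bases and 6 stem bases. In 17 of these, AATAAA or ATTAAA, taken as a poly(A) signal, lay anywhere further downstream in the coding model that ran on longest. That count depends on the length of the models. H4C14 had no such signal in the 194 bases after its match, and H4C15 had one in 690. The other 35 genes had no such match in their models, many of which end at the coding sequence, so nothing follows for those genes. The examples below give the mRNA strand as DNA letters with both arms of the stem in capitals and 5 bases on either side.
H2AC6: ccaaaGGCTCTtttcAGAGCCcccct
H2AC25: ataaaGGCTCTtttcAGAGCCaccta
H2BC21: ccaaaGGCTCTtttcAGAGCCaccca
H2BC5: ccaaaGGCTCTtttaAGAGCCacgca
H3C8: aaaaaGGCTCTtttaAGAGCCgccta
H4C14: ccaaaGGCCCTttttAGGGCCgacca
H4C8: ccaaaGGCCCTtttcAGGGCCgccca
All 8 matched H4 stem-loops had the arms GGCCCT and AGGGCC, whereas the 6 H2A, 11 H2B and 4 H3 stem-loops had GGCTCT and AGAGCC. The model of H2AC6 ran on for 1114 bases past its stem-loop, that of H2BC21 for 1729 and that of H3C8 for 1518, each with a poly(A) signal after it. The model of H2BC5 ran on for 39 bases, which also held such a signal.

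The promoters also differed by family. RefSeq promoter sequences (GRCh38.p14, 250 bases before to 50 after the start) were found for 58 of the 64 genes, and not for H2AC12, H2BC12L, H3C11, H3C12, H4C1 and H4C3. TATAAA, the TATA box, was present on either strand in 37 of 58 promoters (63.8%), against 11.95% of all 27305 promoters, and in 31 of the 58 it lay on the gene's own strand 27 to 33 bases before the start. CCAAT was present in all 6 H1, 15 H2A, 15 H2B and 11 H3 promoters and in 2 of 11 H4 promoters, against 35.7% of all promoters. The octamer ATTTGCAT, which is recognised by POU2F1, was found in 10 of 15 H2A and 11 of 15 H2B promoters, in 1 entry for an H3 gene, and in no H1 or H4 promoter, against 1.80% of all promoters. AAACACA, the H1 box, was found in 6 of 6 H1 promoters against 5.76% of all promoters. GGTCCG, part of the H4 site bound by HINFP, was found in 11 of 11 H4 promoters against 11.2% of all promoters. The H3 entry with the octamer is that of H3C4, which RefSeq gives with the same coordinates and letters as that of H2AC7, so 1 promoter is counted in both families. The H2A and H2B counts are not independent either. In 9 head-to-head pairs the starts lie 194 to 248 bases apart, so most of the sequence before the starts is shared. A match there is counted in both families, such as the octamer between H2AC6 and H2BC4. Both strands were searched for every motif. GGTCCG overlapped a CCAAT of the other strand in the promoters of H2AC20, H2BC21 and H3C7, and TATAAA overlapped its own match on the other strand in 4 promoters. A match is a run of letters and not a measured binding site, and the motifs were taken from what is known of these families. Of the promoters below, 1 is shown for each family arrangement, with the bases before the start only and each motif match on either strand in capitals.
H1-2 (chr6:26056471-26056720, minus strand): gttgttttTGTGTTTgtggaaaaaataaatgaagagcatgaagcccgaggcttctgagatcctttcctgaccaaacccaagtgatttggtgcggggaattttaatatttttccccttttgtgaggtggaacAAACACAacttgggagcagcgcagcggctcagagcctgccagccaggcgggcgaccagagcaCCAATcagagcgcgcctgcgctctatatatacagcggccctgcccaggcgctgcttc
H2AC6 (chr6:26123927-26124171, plus strand, up to the start of H2BC4 on the minus strand): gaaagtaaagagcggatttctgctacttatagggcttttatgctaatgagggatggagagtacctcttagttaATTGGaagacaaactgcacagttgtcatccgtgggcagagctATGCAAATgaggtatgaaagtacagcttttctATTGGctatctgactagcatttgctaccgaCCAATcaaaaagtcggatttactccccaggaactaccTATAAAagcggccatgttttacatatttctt
H3C8 (chr6:26271414-26271663, minus strand): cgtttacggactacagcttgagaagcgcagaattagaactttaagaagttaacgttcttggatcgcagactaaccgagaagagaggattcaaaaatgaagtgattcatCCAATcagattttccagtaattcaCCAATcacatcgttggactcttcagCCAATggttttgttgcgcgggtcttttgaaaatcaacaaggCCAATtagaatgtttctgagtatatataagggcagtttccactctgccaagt
H4C14 (chr1:149832407-149832656, plus strand): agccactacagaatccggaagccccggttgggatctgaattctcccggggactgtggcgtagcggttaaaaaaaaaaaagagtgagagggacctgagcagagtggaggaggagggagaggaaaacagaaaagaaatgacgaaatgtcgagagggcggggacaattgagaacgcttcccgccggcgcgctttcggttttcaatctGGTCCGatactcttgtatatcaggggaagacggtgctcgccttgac
In the H1-2 sequence the capitals are the H1 box (once on each strand) and a CCAAT. In that of H2AC6 they are CCAAT boxes, the octamer and a TATA box, in that of H3C8 4 CCAAT boxes, and in that of H4C14 GGTCCG alone.

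**Figure D1:**
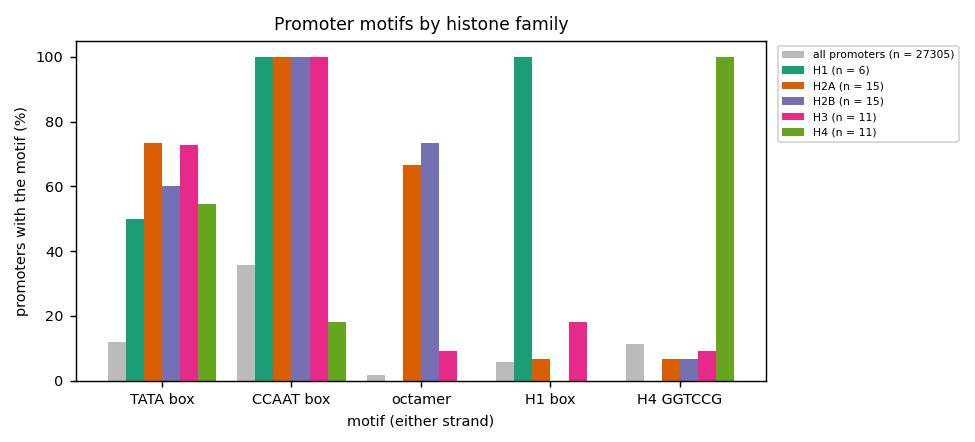
Share of promoters (%, y axis) holding each of 5 motifs on either strand (x axis), for all 27305 RefSeq promoters and for the promoters of each histone family (n in the key). The H1 box stands at 100% for H1, GGTCCG at 100% for H4, and CCAAT at 100% for every family but H4 (18.2%).

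The table holds normalized values taken to be FPKM (fragments scaled to transcript length and library size), which carry no counts, so the depth per library is unknown and no counting interval is given. The genes of a library sum to between 461255 and 529936. The markers of the labelled lines were partly absent. In H446, the neuroendocrine genes CHGA, SYP and NCAM1 lay at or under 0.29 FPKM in every library, in BEAS-2B, the basal cell genes KRT5 and KRT14 lay at or under 0.03 FPKM and TP63 at or under 0.18 FPKM, and in A549, the alveolar genes SFTPC and NKX2-1 lay at or under 0.22 FPKM. Other markers were present: ALDH1A1 (1523 to 1910 FPKM) and AKR1B10 (484 to 734 FPKM) in A549, each under 1 FPKM in the other lines, and KRT17 in BEAS-2B (159 to 188 FPKM), which was higher still in H446 (721 to 915 FPKM). KRT8 was at 500.3 FPKM or more in every library, and EPCAM was at or under 0.6 FPKM in A549. Of the markers of other cell types, the leukocyte gene PTPRC was at or under 0.09 FPKM, the fibroblast gene COL1A1 was at 4.08 to 10.1 FPKM in all libraries, and the endothelial gene PECAM1 (3.4 to 4.03 FPKM) and the fibroblast gene DCN (3.06 to 4.36 FPKM) were present in H446 and at or under 0.45 FPKM in the other lines. The second irradiated BEAS-2B library stood apart in CDKN1A, a p53 target, with 102 FPKM against 310 and 488 in the other irradiated libraries and 79.9 to 86.4 in the controls.

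Most of the histone genes were low. No gene was at 0 in all 18 libraries, 14 were above 0 in all of them, 26 stayed under 1 FPKM throughout, and 8 reached 10 FPKM in at least 1 library. The members with the highest level were H1-2 (deposited as HIST1H1C, Entrez 3006, chromosome 6, 26055740 to 26056470), which encodes a linker histone, and H2BC12 (HIST1H2BK, Entrez 85236, chromosome 6, 27138293 to 27146858), which encodes an H2B. Over the 6 libraries of a line, the mean level of H1-2 was highest in H446 at 96.6 FPKM, against 49.1 for BEAS-2B and 29.6 for A549, and that of H2BC12 was 114 FPKM in H446, 25.8 in BEAS-2B and 27.7 in A549. The next in BEAS-2B were H2AC25 (8.73 FPKM), the pair H2AC18 and H2AC19 (7.63) and H4C3 (4.45). In H446 they were H2AC18 and H2AC19 (34.4), H2AC25 (17.5) and H2AC6 (16.5), and in A549 H2AC6 (10.6), H2BC5 (8.57) and H2AC25 (8.37). H1-2 made up between 95.9% and 99.1% of the summed H1 level in each group, and H2BC12 between 57.7% and 73.9% of the summed H2B level.

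**Figure D2:**
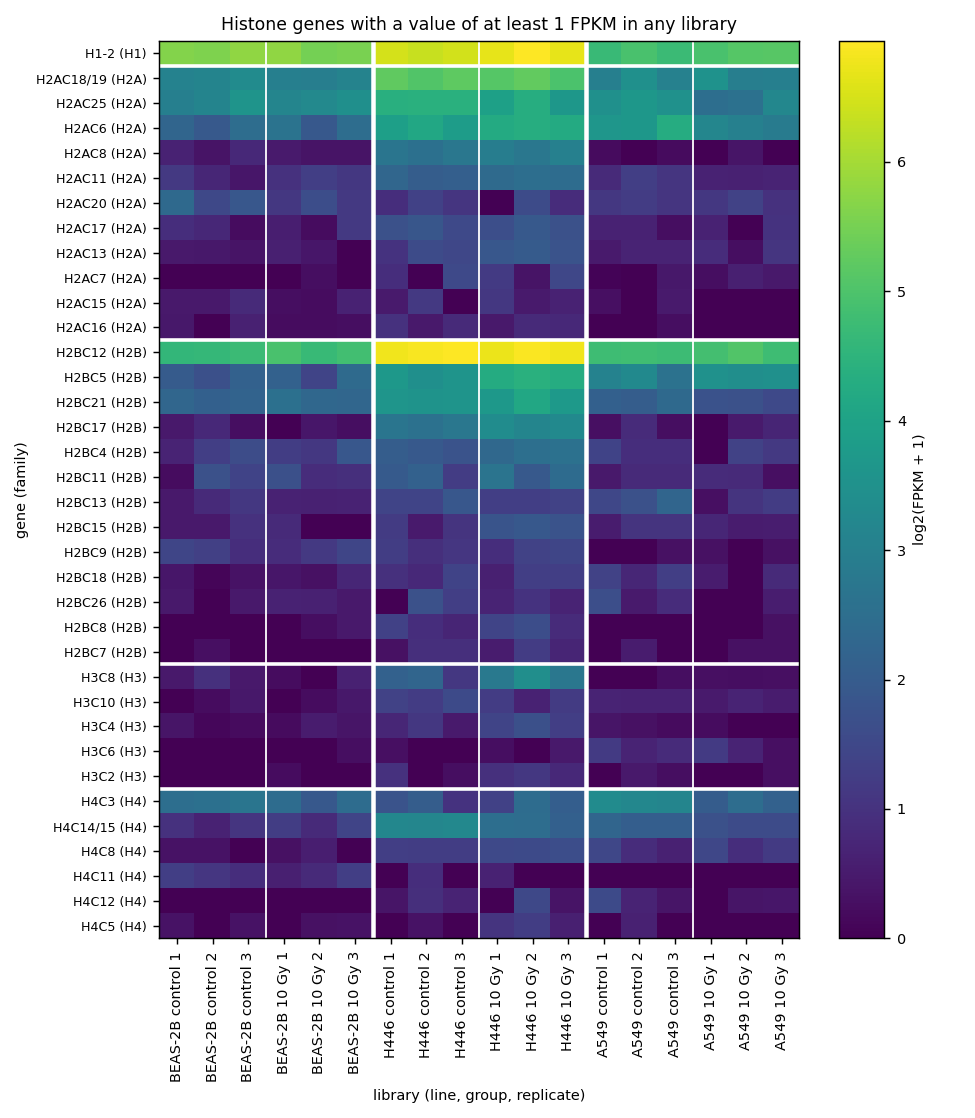
Level of each histone gene that reached 1 FPKM in any library (rows, grouped by family) in the 18 libraries (columns), as log2(FPKM + 1) by colour. H1-2 and H2BC12 are the brightest rows in every line, at line means of 96.6 and 114 FPKM in H446.

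Some of these levels cannot be assigned to 1 gene. H2AC18 and H2AC19, H3C14 and H3C15, and H4C14 and H4C15 held identical values in all 18 libraries, and each pair was counted once in every test, which left 61 distinct genes. Words of 50 bases, the read length, were taken from the shortest coding GENCODE 29 transcript of each member. All words of 7 members also occurred in another gene, and over 50% of the words of 17 members did. H2BC12 was among them, with 74.1% of its words shared. Its transcript had 381 bases while its RefSeq gene spans 8566, so the shares do not cover longer mRNAs that may have been measured. No word of H1-2, H3C8, H2AC8 or H4C3 was shared, 0.495% of the words of H2AC6 were, 0.591% of those of H2AC25 and 9.84% of those of H2BC5. All words of H3C4, 62.3% of those of H2AC13 and 31.3% of those of H2BC15 were shared.

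The genes with long RefSeq models had a higher median level than the short ones, but not all of them were high. The 8 members whose gene spanned 2224 to 29682 bases were H2BC4, H2BC5, H2BC12, H2BC18, H2BC21, H3C4, H3C6 and H4C15. The median of their highest group mean was 6.43 FPKM, against 0.800 FPKM for the 56 members whose gene spanned at most 797 bases. The levels overlapped, since H3C6 (0.90 FPKM), H2BC18 (1.24) and H3C4 (1.78) were low among the long genes. H1-2 (107.5 FPKM) and H2AC18 (35.1) were high among the short ones. H4C15 holds the same values as H4C14, which counts as short, so that pair stands on both sides. Partners in a head-to-head arrangement could lie at unlike levels. There were 9 such H2A and H2B pairs, with starts 194 to 248 bases apart. In H446, H2AC25 had a mean of 17.5 FPKM over 6 libraries and its partner H2BC26 1.002, and H2BC21 had 12.4 and its partner H2AC20 1.06. H2AC11 and H2BC11 were closer, at 3.95 and 3.39 FPKM.

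Before irradiation, the histone genes were highest in H446. The summed level of all members was 350.2 ± 4.45 FPKM (SD, n = 3) in unirradiated H446, 124 ± 10.2 in BEAS-2B and 128 ± 3.41 in A549, with each identical pair counted once. Of 29 distinct members tested, 22 were higher and 3 lower in H446 than in BEAS-2B at an adjusted p under 0.05 (limma, Benjamini-Hochberg over 13071 genes). Over all genes tested, 81.1% were called in that comparison, 35.2% higher and 45.9% lower, while of the members 75.9% were higher and 10.3% lower. Against A549, 20 members were higher in H446 and 1 was lower (69.0% and 3.45%), where 83.2% of all genes were called, 40.5% higher and 42.7% lower. These counts include members that passed the filter in H446 and not in the other line and so tend to be higher there. Against BEAS-2B, 14 members passed in H446 and not in BEAS-2B, of which 12 were higher, and of the 14 that passed in both lines 10 were higher and 2 lower. Against A549, 15 passed in H446 and not in A549, of which 12 were higher, and of the 13 that passed in both 8 were higher and 1 lower.

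The members named here differed most on the log2(FPKM + 1) scale, which understates the change of low genes, and their order depends on that scale. H2BC12 read 110, 117 and 121 FPKM in the H446 controls, against 23.0, 23.8 and 25.7 in BEAS-2B and 26.5, 27.2 and 26.0 in A549. Every H446 control lay above every control of the other lines, with a log2 difference of 2.22 (SE 0.07, limma adjusted p = 1.12e-15) from BEAS-2B and 2.09 (SE 0.07, limma adjusted p = 2.41e-15) from A549. H4C14 and H4C15 (HIST2H4A and HIST2H4B, 2 H4 genes on chromosome 1) read 8.28, 8.01 and 8.40 FPKM in H446, 3.78, 3.22 and 3.22 in A549, and 0.97, 0.59 and 1.09 in BEAS-2B. The lines did not overlap, and H446 exceeded BEAS-2B by 2.30 on the log2 scale (SE 0.13, limma adjusted p = 5.95e-12). H2AC8 read 5.46, 4.93 and 5.78 FPKM in H446 and 0.16, 0.00 and 0.16 in A549, a log2 difference of 2.53 (SE 0.12, limma adjusted p = 1.68e-13). H2BC17 was higher in H446 by 2.17 than in BEAS-2B (SE 0.18, limma adjusted p = 1.42e-09) and by 2.22 than in A549 (SE 0.18, limma adjusted p = 9.13e-10), and H2AC18 and H2AC19 by 1.99 than in BEAS-2B (SE 0.14, limma adjusted p = 1.01e-10) and 1.996 than in A549 (SE 0.14, limma adjusted p = 7.87e-11). H3C8 was higher in H446 than in A549 by 1.76 (SE 0.24, limma adjusted p = 1.53e-06). H2AC8, H2BC17 and H3C8 passed the filter in H446 alone, the line where they are high. With a pseudocount of 0.1 the differences from A549 came to 4.86 for H2AC8, 4.18 for H3C8 and 3.65 for H2BC17, above that of H2BC12 (2.12).

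H4C3 went the other way. It read 2.39, 3.12 and 1.04 FPKM in the H446 controls, against 9.13, 8.19 and 7.91 in A549 and 4.71, 4.87 and 5.44 in BEAS-2B. The H446 controls were the lowest, and among the members that passed the filter H4C3 was the 1 lower in H446 than in A549 (log2 difference -1.62, SE 0.24, limma adjusted p = 5.60e-06). With no filter, H1-3, H3C6, H2BC6 and H3C12 were called lower in H446 as well, while most members called were still higher there. H2AC20 and H4C11 were, with H4C3, the members lower in H446 than in BEAS-2B, by -0.81 (SE 0.27, limma adjusted p = 0.0111) and -0.78 (SE 0.21, limma adjusted p = 0.00240). Of these, H4C11 passed the filter in BEAS-2B, where it is higher, and not in H446. H4C11 shares 81.2% of its 50-base words with H4C12, all of whose words lie in H4C11. H4C12 read 0.31, 0.92 and 0.61 FPKM in the H446 controls and was listed at 0 in all 6 BEAS-2B libraries, so the H4C11 difference cannot be assigned to that gene alone.

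The histone levels of A549 and BEAS-2B differed less. Of 29 members, 8 were higher and 6 lower in A549 (27.6% and 20.7%), where 83.8% of all genes were called, 38.3% higher and 45.4% lower. Of the 11 members that passed the filter in both lines, 4 were higher and 2 lower, and the other 8 calls were of members under the filter in at least 1 of the lines. H2AC6 read 11.6, 11.7 and 18.5 FPKM in the A549 controls and 3.80, 2.83 and 4.57 in BEAS-2B, a log2 difference of 1.64 (SE 0.18, limma adjusted p = 8.06e-08). H4C14 and H4C15 were higher in A549 by 1.23 (SE 0.13, limma adjusted p = 5.32e-08) and H2BC5 by 1.05 (SE 0.19, limma adjusted p = 4.22e-05). H2BC9 was lower in A549 by -1.12 (SE 0.17, limma adjusted p = 4.34e-06), with 0.00, 0.00 and 0.23 FPKM against 1.74, 1.49 and 0.87. It and H4C11 passed the filter in BEAS-2B and not in A549, and with a pseudocount of 0.1 their differences were -3.25 and -3.61. H4C11 was listed at 0 in all 6 A549 libraries and at 1.43, 1.13 and 0.86 FPKM in the BEAS-2B controls (limma adjusted p = 0.000109). Its near-copy H4C12 went the opposite way, with 1.95, 0.62 and 0.31 FPKM in the A549 controls. All log2 differences in the text are on the log2(FPKM + 1) scale.

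At 24 h after 10 Gy, most of the changed histone genes of H446 were higher. Of 28 distinct members tested, 13 rose and 2 fell (limma, adjusted p under 0.05), that is 46.4% and 7.14%. Of all 11479 genes tested, 38.4% were called, 14.8% higher and 23.6% lower, and the median log2 difference was 0.29 over the members and -0.03 over all genes. Quantile normalization moved the split of all genes to 18.9% higher and 19.0% lower (37.9% in all), and that of the members to 14 higher and 2 lower. By family, 1 of 1 H1, 4 of 9 H2A, 5 of 12 H2B, 2 of 3 H3 and 1 of 3 H4 genes rose, and 1 H2A and 1 H4 gene fell. With all 18 libraries in 1 fit, 8 of 29 members were called (7 higher and 1 lower), beside 24.2% of all 13071 genes (8.83% higher and 15.3% lower). With no filter, 7 of 61 were called (6 higher and 1 lower), beside 16.3% of all 18475 genes (6.8% higher and 9.46% lower). In bulk RNA, fewer cells expressing a gene and less of its RNA per cell cannot be told apart.

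The rises included an H3 gene, H2B genes and the main H1 gene. H3C8 (HIST1H3G, chromosome 6, 26270918 to 26271413) read 3.44, 3.79 and 1.19 FPKM in the H446 controls and 6.03, 9.75 and 5.68 after irradiation. The irradiated libraries lay above all controls, with a log2 difference of 1.15 (SE 0.27, limma adjusted p = 0.00698). H2BC5 (HIST1H2BD, chromosome 6, 26158121 to 26171349) read 11.90, 9.93 and 10.97 FPKM in the controls and 18.4, 20.1 and 18.6 in the irradiated libraries. The groups stood well apart, with a log2 difference of 0.75 (SE 0.06, limma adjusted p = 1.68e-05). H1-2 read 88.85, 80.24 and 87.74 FPKM in the controls and 101, 119 and 102 after irradiation, a rise of 0.32 (SE 0.06, limma adjusted p = 0.00295). The other H2B genes named by size of change were H2BC15, up by 0.91 (SE 0.15, limma adjusted p = 0.00116), H2BC17, up by 0.59 (SE 0.07, limma adjusted p = 0.000164), and H2BC4, up by 0.57 (SE 0.09, limma adjusted p = 0.000952). H3C4 rose by 0.67 (SE 0.15, limma adjusted p = 0.00656) and H2AC13 by 0.54 (SE 0.13, limma adjusted p = 0.00938). The remaining rises, of H2AC6, H2AC8, H2AC11, H2BC21 and H4C8, lay between 0.24 and 0.32. Both H3C4 and H2BC15 passed the filter mainly through the irradiated libraries, with 1 and 2 of 3 controls at 1 FPKM or more. The calls of H3C8, H1-2, H3C4, H2AC13, H2AC6 and H2AC11 were lost with no filter, and those of H2BC4, H4C8, H2AC6 and H2AC11 with all 18 libraries in 1 fit. Those of H2AC8, H2AC25 and H2BC21 were lost under both.

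H4C14 and H4C15 fell in H446. They read 8.28, 8.01 and 8.40 FPKM in the controls and 4.73, 4.60 and 3.4 after irradiation, a log2 difference of -0.83 (SE 0.09, limma adjusted p = 0.000118). The highest irradiated library was below the lowest control. H2AC25, whose gene lies apart from the main cluster on chromosome 1 (228457364 to 228457873), read 19.9, 20.2 and 20.0 FPKM in the controls and 14.45, 18.95 and 11.80 after irradiation, a log2 difference of -0.41 (SE 0.12, limma adjusted p = 0.0214). The irradiated values spread widely, and this call was lost without control replicate 1 or 2, or without irradiated replicate 1 or 3. The calls of H2AC8 and H2BC21 rested on few libraries too. That of H2AC8 was lost without the same 4 libraries, and that of H2BC21 without irradiated replicate 2 or any 1 of the 3 controls. H2BC12, the highest member of the line, read 110, 117 and 121 FPKM in the controls and 106, 119 and 109 after irradiation, and its groups overlapped (log2 difference -0.06, SE 0.05, limma adjusted p = 0.381).

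The H446 libraries also differed in a GC-dependent way. The Spearman correlation across genes between transcript GC content and the deviation of a library from the mean of its line was 0.35 to 0.46 in the controls and -0.50 to -0.11 in the irradiated libraries, and the members had a median GC content of 58.2% against 49.0% over the genes with a value. With this trend removed from each library, 14 of the 28 members were called, 13 higher and 1 lower (H2AC25 was no longer called), beside 30.9% of all genes, 15.9% higher and 15.0% lower. The part of this trend in the changes was not tested further.

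**Figure D3:**
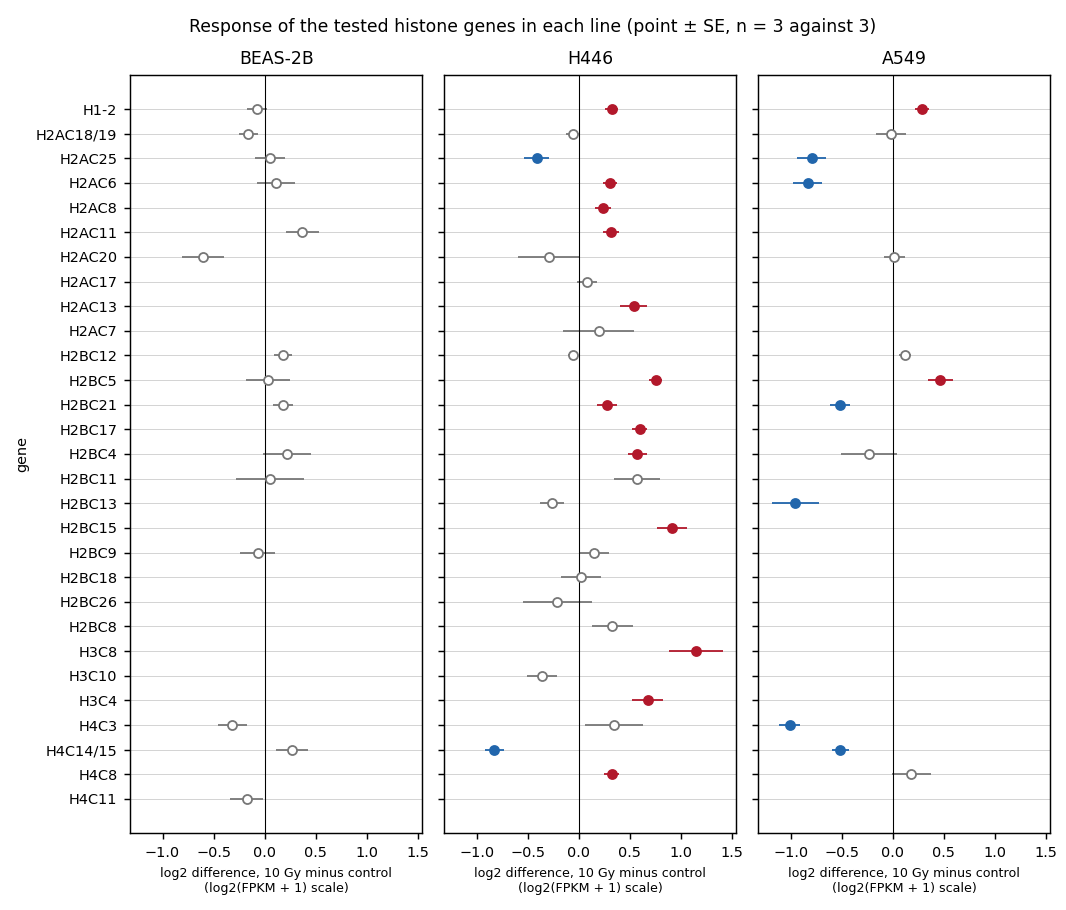
log2 difference of irradiated minus control libraries (x axis, log2(FPKM + 1) scale, point and SE, n = 3 against 3) for each tested histone gene (rows) in the 3 lines. Filled red points rose and filled blue points fell at an adjusted p under 0.05, open points did not pass, and a gene without a point was not tested in that line. Red points prevail in H446 (13 of 15 called) and blue in A549 (6 of 8), and all 15 points of BEAS-2B are open.

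In irradiated A549 cells, most of the changed histone genes were lower. Of 13 distinct members tested, 6 fell and 2 rose (46.2% and 15.4%), where 51.7% of all 11993 genes tested were called, 25.3% higher and 26.4% lower. The share of members called in either direction, 61.5%, was near that of all genes. By family, 2 of 4 H2A, 2 of 5 H2B and 2 of 3 H4 genes fell, and 1 of 1 H1 and 1 of 5 H2B genes rose. The median log2 difference was -0.24 over the members and 0.00 over all genes tested. No H3 gene passed the filter in A549 or BEAS-2B.

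H4C3 (HIST1H4C, chromosome 6, 26103933 to 26104337) had the lowest log2 difference in A549. It read 9.13, 8.19 and 7.91 FPKM in the A549 controls and 3.03, 4.60 and 3.49 after irradiation, a log2 difference of -1.01 (SE 0.10, limma adjusted p = 9.06e-06). The groups were far apart, and the ratio of the group means was 0.441, while that of the lower H2BC13 was 0.338. H2AC6 (HIST1H2AC, chromosome 6, 26124172 to 26124690) read 11.6, 11.7 and 18.5 FPKM in the controls and 8.10, 7.18 and 6.43 after irradiation, a fall of -0.83 (SE 0.14, limma adjusted p = 0.000371), while in H446 it had risen. H2AC25 read 10.2, 11.8 and 10.4 FPKM in the controls and 4.63, 5.06 and 8.19 after irradiation, and the groups did not overlap (log2 difference -0.79, SE 0.14, limma adjusted p = 0.000615). H4C14 and H4C15 read 3.78, 3.22 and 3.22 FPKM in the controls and 2.29, 1.98 and 1.98 after irradiation (log2 difference -0.51, SE 0.08, limma adjusted p = 0.000233). H2BC13 fell by 0.96 (SE 0.23, limma adjusted p = 0.00415) and passed the filter mainly through the controls, with 2 of 3 irradiated libraries at 1 FPKM or more, and its call was lost with no filter. H2BC21 fell by 0.52 (SE 0.10, limma adjusted p = 0.000760).

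The A549 members that rose had also risen in H446. H2BC5 read 7.47, 8.71 and 5.18 FPKM in the A549 controls and 10.3, 9.71 and 10.1 after irradiation (log2 difference 0.47, SE 0.12, limma adjusted p = 0.00759). H1-2 read 25.02, 29.54 and 25.45 FPKM in the controls and 29.95, 33.70 and 34.19 after irradiation (log2 difference 0.28, SE 0.07, limma adjusted p = 0.00367), and its lowest irradiated library was only just above its highest control. H2BC12 read 26.5, 27.2 and 26.0 FPKM in the controls and 28.1, 32.0 and 26.6 after irradiation, with overlap (log2 difference 0.11, SE 0.06, limma adjusted p = 0.127). The H2BC5 rise was lost with all 18 libraries in 1 fit and with no filter, and that of H1-2 with no filter.

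In BEAS-2B no histone gene changed at the threshold in the reported fit. Of 15 distinct members tested, 0 were called, as were 0 of all 11734 genes (0.0%), and at an unadjusted p under 0.05 there were 3 members and 1446 genes. Without the second irradiated library, which stood apart in CDKN1A, 0 of 14 members were called, beside 233 of 11680 genes (1.99%, with 1.92% higher and 0.0771% lower). The Spearman correlation of a library's deviations with GC content was 0.70 in that library, 0.45 and -0.31 in irradiated replicates 1 and 3, and -0.63, 0.01 and -0.38 in the controls. The smallest p were those of H2AC20, at 4.17, 1.84 and 2.71 FPKM in the controls and 1.2, 2.14 and 1.24 after irradiation (log2 difference -0.61, SE 0.20, limma adjusted p = 0.291), H4C3 (-0.32, SE 0.14, limma adjusted p = 0.399) and H2AC11 (0.37, SE 0.16, limma adjusted p = 0.401). With the replicate numbers as a block, which raised the calls over all genes too, H2AC20 was called (limma adjusted p = 0.0244). H2BC12 differed by 0.18 (SE 0.09, limma adjusted p = 0.427) and H2BC21 by 0.18 (SE 0.10, limma adjusted p = 0.462). H4C3 read 4.71, 4.87 and 5.44 FPKM in the controls and 4.48, 2.75 and 4.43 after irradiation, and H1-2 49.6, 47.7 and 53.8 FPKM and then 54.5, 43.5 and 45.7. The groups of H1-2 overlapped, while those of H4C3 did not.

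**Figure D4:**
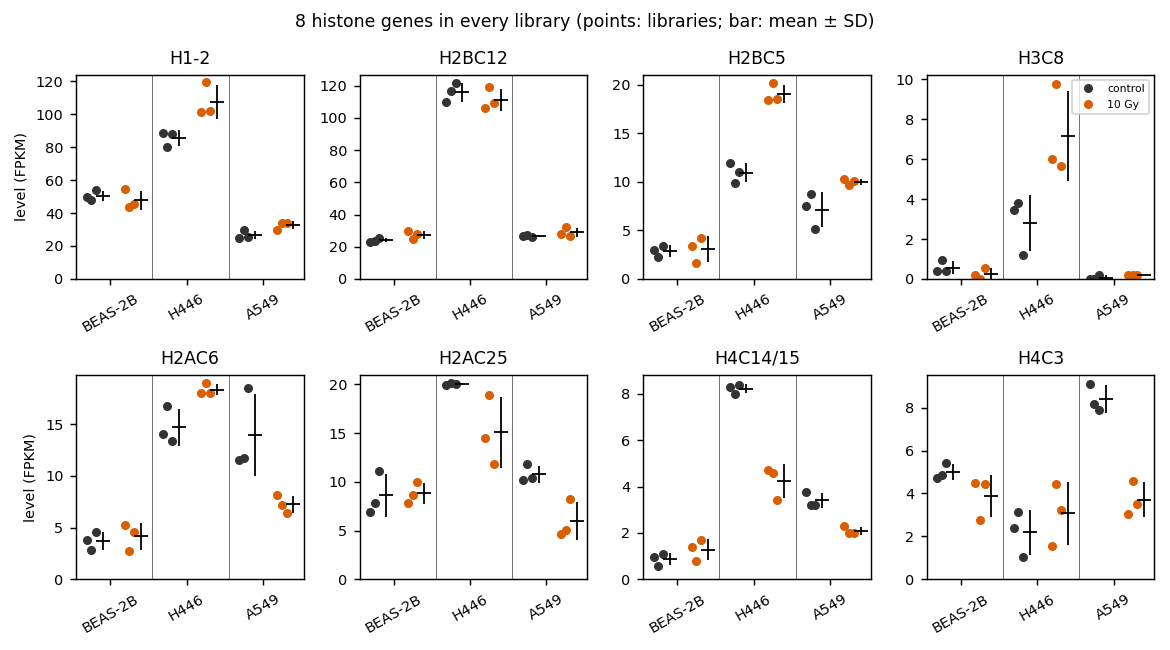
Level (FPKM, y axis from 0) of 8 histone genes in every library, controls in dark grey and irradiated libraries in orange, with the mean and SD of each group (n = 3) as a bar. H4C14 and H4C15 (1 panel) fall in H446 and in A549, H2BC5 is higher after irradiation in both, and H2AC6 is lower after irradiation in A549 alone.

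The family sums are given with each identical pair counted once, as descriptions without a test. In H446, the summed H3 level was 6.95 ± 1.68 FPKM (SD, n = 3) in the controls and 12.7 ± 2.52 after irradiation, H1 went from 86.35 ± 4.41 to 109 ± 10.3, and H2B from 157 ± 5.44 to 171 ± 10.7. The irradiated libraries lay above the controls in these 3 families. The H2A sum (86.1 ± 0.581 and 87.0 ± 7.66) and the H4 sum (13.9 ± 1.30 and 12.1 ± 2.60) overlapped. The H4 sum of H446 depends on how the H4C14 and H4C15 pair is counted. With both rows it was 22.1 ± 1.10 in the controls and 16.4 ± 2.99 after irradiation, without overlap, and without the pair it was 5.66 ± 1.498 and 7.87 ± 2.38, with overlap. In A549, H2A went from 36.9 ± 4.25 to 24.9 ± 2.16 FPKM and H4 from 14.75 ± 2.41 to 7.98 ± 0.285, both without overlap. Without the pair, the A549 H4 sum still lay lower after irradiation, at 5.89 ± 0.446 against 11.3 ± 2.09. The H3 sum of A549 overlapped at 2.99 ± 0.238 and 2.26 ± 0.656, although with both rows of its identical pair it did not (3.35 ± 0.095 and 2.35 ± 0.679). The A549 sums of H1 (27.8 ± 2.65 and 32.997 ± 2.10) and H2B (46.0 ± 0.533 and 45.4 ± 2.71) overlapped, as did all 5 family sums in BEAS-2B. Without the pair, the BEAS-2B H4 sum did not overlap, at 7.10 ± 0.501 in the controls and 5.38 ± 0.915 after irradiation. Without H2BC12, the H2B ratio of irradiated to control was 1.47 in H446, against 1.09 with it, and 0.849 in A549, against 0.987. The H1 ratio without H1-2 was 0.339 in A549, against 1.19 with it, but it rests on group means of only 0.383 FPKM after irradiation and 1.13 in the controls.

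**Figure D5:**
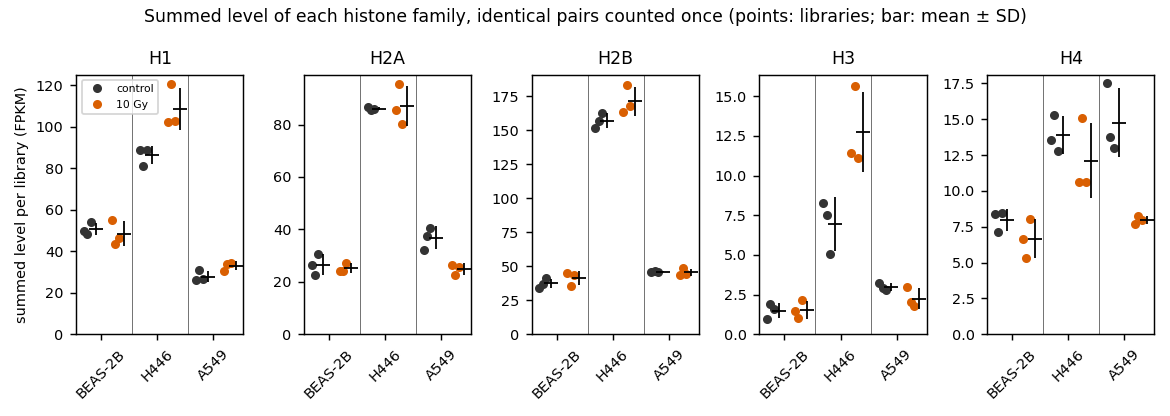
Summed level of each histone family per library (FPKM, y axis from 0), each identical pair counted once, controls in dark grey and irradiated libraries in orange, with the mean and SD of each group (n = 3) as a bar. The H1, H2B and H3 sums are higher after irradiation in H446, the H2A and H4 sums are lower in A549, and the BEAS-2B groups overlap in all 5 panels.

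The responses themselves differed between the lines for some members. These differences were tested in 1 fit of all 18 libraries, and the 3 comparisons share libraries. Of 29 members, 6 differed between BEAS-2B and H446 (22.7% of all 13071 genes did, 13.7% higher and 8.99% lower in BEAS-2B), 7 between BEAS-2B and A549 (2089 of all 13071 genes higher and 1910 lower in BEAS-2B, 30.6% in all, against 6 and 1 of the members) and 7 between A549 and H446 (34.6%). The members' shares were 20.7%, 24.1% and 24.1%. All 7 of the last had a lower response value in A549 than in H446, where 15.3% of all genes were lower and 19.3% higher. Of these, 3 (H4C3, H2AC6 and H2BC21) were among the 13 members that passed the filter in both lines, and 4 (H2BC15, H3C8, H3C4 and H2AC11) passed in H446 and not in A549. Whether their low level in A549 bears on these differences was not tested. The differences were those of H4C3 (log2 difference of the responses -1.36, SE 0.34, limma adjusted p = 0.00534), H2BC15 (-1.18, SE 0.29, limma adjusted p = 0.00473), H2AC6 (-1.14, SE 0.25, limma adjusted p = 0.00206), H3C8 (-0.96), H3C4 (-0.91), H2BC21 (-0.79) and H2AC11 (-0.72). In the 6 A549 libraries, H3C8 was at or under 0.22 FPKM, H3C4 at or under 0.32, H2BC15 at or under 1.07 and H2AC11 at or under 1.46. The H4C14 and H4C15 pair, which fell in both cancer lines, had a higher response value in BEAS-2B than in H446 by 1.09 (SE 0.18, limma adjusted p = 0.000884) and than in A549 by 0.78 (SE 0.18, limma adjusted p = 0.00407), and it was not among the members that differed between A549 and H446. H3C8, H2BC15, H2BC17, H3C4 and H1-2 had a lower response value in BEAS-2B than in H446, by differences from -1.48 to -0.40. Of these 5, only H1-2 passed the filter in both lines, and the 4 others passed in H446 and not in BEAS-2B, where they were at or under 1 FPKM. Between BEAS-2B and A549, 5 of the 7 members that differed passed in both lines, H2AC11 passed in BEAS-2B alone of the 2, and H2BC18 in neither.

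The counts of companion genes below stand beside 14.8% of all genes higher and 23.6% lower in H446, and 25.3% and 26.4% in A549. Of 21 tested factors of histone mRNA synthesis and 3′ end processing, 1 rose and 5 fell in H446, 1 rose and 4 fell in A549, and 0 were called in BEAS-2B. In H446, SLBP, the stem-loop binding protein, read 74.0, 69.7 and 73.3 FPKM in the controls and 40.4, 43.6 and 41.1 in the irradiated libraries. The groups were far apart (log2 difference -0.78, SE 0.04, limma adjusted p = 5.17e-07). CASP8AP2, a factor of histone gene expression also known as FLASH, fell by 0.38 (SE 0.06, limma adjusted p = 0.000924) and LSM11, a U7 snRNP protein, by 0.21 (SE 0.06, limma adjusted p = 0.0290), while TUT7, a uridylyltransferase, rose by 0.25 (SE 0.06, limma adjusted p = 0.00740). In A549, LSM10, the partner of LSM11 in the U7 snRNP, fell by 0.58 (SE 0.06, limma adjusted p = 7.39e-06), followed by LSM1 and YY1 at -0.25 and -0.23, and UPF1, which acts in the decay of histone mRNA, rose by 0.19.

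Of the S phase genes, 20 of 23 fell and 2 rose in H446 (23.6% and 14.8% of all genes did), 12 fell and 3 rose in A549 (26.4% and 25.3%), and 0 were called in BEAS-2B. The largest falls in H446 were those of MCM5 (log2 difference -1.33), CCNE2 (-1.20) and CCNE1 (-1.20), and the rises those of CCNA2 (0.79) and RFC3 (0.17). In A549, MCM6 (-0.77), MCM5 (-0.72) and E2F1 (-0.63) fell, while PCNA rose by 1.38, TYMS by 0.43 and CCNE1 by 0.24. The median log2 difference of the S phase genes was -0.62 in H446, beside 0.29 for the histone members. Of 20 chaperone and assembly genes, 12 fell and 0 rose in H446, led by CHAF1B (-0.74), ASF1B (-0.69) and TONSL (-0.60), and 6 fell and 3 rose in A549, led by SSRP1 (-0.49), CHAF1B (-0.40) and DNAJC9 (-0.34) among the falls and ATRX (0.26), HAT1 (0.20) and CABIN1 (0.19) among the rises. None was called in BEAS-2B.

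The replication-independent histone genes, most of whose mRNAs carry a poly(A) tail, were the last list. Of 11 tested, 5 fell and 1 rose in A549 (51.7% of all genes were called), of 10 tested in H446 2 fell and 1 rose (38.4% of all genes), and 0 of 12 were called in BEAS-2B. H1-10, a linker histone, read 139, 149 and 141 FPKM in the A549 controls and 69.8, 66.5 and 66.8 in the irradiated libraries (log2 difference -1.07, SE 0.04, limma adjusted p = 1.74e-09), and H3-3B fell by 0.59, while H3-3A, which encodes the same H3.3 protein, rose by 0.37. H1-10 also fell in H446, by 0.49, and CENPA, the centromeric H3, rose by 0.79. In A549 H1-10 fell while H1-2 rose.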

How the data were processed

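Poly(A)-selected RNA of 3 cell lines was sequenced by the authors as single-end reads of 50 bases. The submitters' processing notes name HISAT2 2.0.4, Bowtie2 2.2.5, RSEM 1.2.12 and hg38. The authors deposited normalized values, read here as FPKM (scaled to transcript length and library size). That unit is an inference, since no source used here names it. Libraries were grouped by their titles. Of 18475 Entrez numbers, 18181 matched a RefSeq gene (GRCh38.p14). The depth is unknown because no counts are used, so values carry no counting interval.

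Genes with at least 1 FPKM in 3 of a line's 6 libraries were tested on log2(FPKM + 1) with limma 3.58.1 (eBayes with a trend on the mean, R 4.3.3), separately in each line. The threshold was a Benjamini-Hochberg adjusted p under 0.05 over all genes tested. Lines and responses were compared in 1 fit of 18 libraries with 6 group means. Same-numbered libraries did not correlate in every pair (correlation of deviations -0.13 to 0.32), which does not exclude pairing. The replicate numbers were not used as a block in the reported fits. The members and lists were chosen with earlier results of these data known.

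Named members are the 5 highest per line, up to 10 called per line by size of change (5 by smallest p in BEAS-2B) and up to 5 per difference between lines. Stem-loop matches and shared 50-base words (the latter from the shortest coding transcript of each gene) were read from GENCODE 29 transcripts, promoters from RefSeq. Protein identity was not computed, and H2AC1, H2BC1, H2BC3, H2BC14, H4C6 and H4C7 were not analysed here. Values of some genes outside the members are not reported here. Of 15 RNAs without a poly(A) tail chosen as a check on the selection, 0 are among the genes used here. The scripts were tested on simulated data. Alternatives were quantile normalization, equal totals, no trend, no filter, 1 FPKM in every library, a pseudocount of 0.1, the replicate block, removal of a GC trend (loess, span 0.5), all 18 libraries in 1 fit, an adjusted p under 0.01 and each library left out. Python 3.11.15 with numpy 2.4.6 and pandas 2.3.3 joined the tables, and matplotlib 3.10.9 drew the plots.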

Additional observations from a re-analysis of the deposited data

Results flagged for a closer look

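Differences in response between lines passed the test of the difference itself for the members below, each value being the log2 difference of the responses (irradiated minus control) in limma's fit of all 18 libraries. In BEAS-2B minus H446 they were H3C8 (-1.48), H2BC15 (-1.29), H2BC17 (-0.87), H3C4 (-0.54), H1-2 (-0.40) and H4C14 (1.09). In BEAS-2B minus A549 they were H1-2 (-0.36), H2BC21 (0.70), H2AC11 (0.77), H4C14 (0.78), H2AC25 (0.84), H2BC18 (0.88) and H2AC6 (0.94). In A549 minus H446 they were H4C3 (-1.36), H2BC15 (-1.18), H2AC6 (-1.14), H3C8 (-0.96), H3C4 (-0.91), H2BC21 (-0.79) and H2AC11 (-0.72). H4C14 stands for the pair with H4C15. Some of these members were under the filter in a line compared. H3C8, H2BC15, H2BC17 and H3C4 passed in H446 and not in BEAS-2B or A549, H2AC11 passed in H446 and BEAS-2B and not in A549, and H2BC18 passed in H446 and in neither BEAS-2B nor A549. Their differences rest on values near or under 1 FPKM in the lower line.

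Of the 15 named here by size, those of H3C8 and H4C14 between BEAS-2B and H446, of H2AC6, H4C14 and H2AC11 between BEAS-2B and A549, and of H4C3, H2AC6 and H3C4 between A549 and H446 kept their call under every alternative in which they were tested, as did that of H2BC15 between BEAS-2B and H446. The H3C4 difference between BEAS-2B and H446 lost its call under 11 of 20 alternatives, with values from -0.82 to -0.39. It was lost without H446 irradiated replicate 1 or 2, H446 control replicate 1 or 3, BEAS-2B irradiated replicate 1, or BEAS-2B control replicate 1 or 3. The H2BC18 difference between BEAS-2B and A549 lost it under 10 of 20, without A549 irradiated replicate 1 or 2, A549 control replicate 1 or 3, BEAS-2B irradiated replicate 1 or 3, or BEAS-2B control replicate 2 or 3. The H3C8 difference between A549 and H446 lost it under 9 of 20, without any 1 of the A549 irradiated replicates, A549 control replicate 3, H446 irradiated replicate 2 or H446 control replicate 3. The H2BC17 difference between BEAS-2B and H446 was lost without BEAS-2B irradiated replicate 1, with a pseudocount of 0.1 and at an adjusted p under 0.01. That of H2BC15 between A549 and H446 was lost with a pseudocount of 0.1. That of H2AC25 between BEAS-2B and A549 was lost at an adjusted p under 0.01. Groups of 3 libraries are too small for a search for single outlying libraries.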

How the results depend on the processing

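Counts of members called were within 1.5 times the reported count under quantile normalization, equal totals, no trend, a pseudocount of 0.1 and a removed GC trend in all 9 comparisons. No named difference changed sign. With no filter, 1 member was called in BEAS-2B (H4C9, -0.34, limma adjusted p = 0.0002, beside 10 of 18475 genes, 0 members reported) and 7 in H446 (15 reported, beside 3004 of 18475 genes), and with all 18 libraries in 1 fit 8 in H446 (beside 3157 of 13071 genes). H4C9 read 0.27, 0.26 and 0.27 FPKM in the BEAS-2B controls and 0 in each irradiated BEAS-2B library, so its call rests on values near the floor. With 1 FPKM in every library, 8 members could be tested in the comparisons between lines, and the calls were 2 for BEAS-2B minus H446 (6 reported), 4 for BEAS-2B minus A549 (7), 3 for A549 minus H446 (7), 4 for unirradiated A549 against BEAS-2B (14), 8 for H446 against BEAS-2B (25) and 7 for H446 against A549 (21), a fall that fewer genes tested brings with it. At an adjusted p under 0.01, BEAS-2B minus H446 kept 3 and BEAS-2B minus A549 4.

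With the replicate block, 1 member was called in BEAS-2B (H2AC20, -0.61, limma adjusted p = 0.0244, 439 of 11734 genes called), and every other count stayed within 1.5 times. Same-numbered libraries did not correlate in every pair, and not every library correlated best with its own number. Leaving out 1 library in turn gave 0 to 0 calls in BEAS-2B, 13 to 15 in H446, 8 to 9 in A549, 4 to 8 for BEAS-2B minus H446, 5 to 8 for BEAS-2B minus A549, 6 to 10 for A549 minus H446, 12 to 16 for unirradiated A549 against BEAS-2B, 22 to 25 for H446 against BEAS-2B and 19 to 21 for H446 against A549.

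Without its top gene, the ratio of irradiated to control sums moved to 1.26 for H1 in BEAS-2B, 1.42 for H1 in H446, 0.339 for H1 in A549, 1.47 for H2B in H446, 0.849 for H2B in A549, 0.652 for H4 in A549 and 0.802 for all members in A549, while equal totals, and counting identical pairs once (chosen after seeing the data), moved none beyond the replicate spread, although with the latter the H4 sum of H446 and the H3 sum of A549 overlapped between groups. The H1 sums without H1-2 had group means of 0.383 to 1.13 FPKM, so those ratios rest on values near the floor. Depth is unknown, so a member under the filter in a line may have changed without being detectable here.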
